A study of Sus scrofa with 9 samples.

Results

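The Sprouty and Spred genes were examined in porcine aortic valvular interstitial cells (PVICs), the fibroblast-like cells of the valve leaflet. The family was taken by gene symbol as SPRY1, SPRY2, SPRY4, SPRED1, SPRED2 and SPRED3, with IL17RD, whose product is also known as Sef. All 7 genes were found among the 19535 gene rows, and all 7 passed the filter on low counts that left 13662 genes for testing. The cells came from wild-type pigs aged 4 to 5 months, from leaflets whose surface endothelium had been wiped off, and were grown in serum-containing DMEM. The control group stayed in DMEM, the OIM group received an osteogenic medium with sodium dihydrogen phosphate, ascorbic acid and insulin, and the bFGF group received OIM with basic fibroblast growth factor at 50 ng/mL. The labels give 3 days of treatment for every group, while the study's methods give a shorter exposure before RNA collection. Each group had 3 libraries. The sources do not say whether these came from separate animals or cultures, so the p-values measure only the spread between these libraries.

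Fibroblast growth factors bind receptor tyrosine kinases, which recruit adaptors such as FRS2 and GRB2 and switch on Ras, RAF, MEK and ERK in turn. Active ERK raises the transcription of several of the pathway's own inhibitors, and the Sprouty genes are textbook examples of this negative feedback. Sprouty proteins act between the receptor and RAF. In SPRY1 and SPRY2, a phosphorylated tyrosine near the amino terminus docks the ubiquitin ligase CBL. Spred proteins bring the Ras-inactivating protein neurofibromin to the membrane, and IL17RD is a membrane protein that binds FGF receptors and holds back ERK signalling.

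The 3 Sprouty genes share a simple structure, with the whole coding sequence in 1 exon. In the RefSeq annotation of Sscrofa11.1, SPRY1 lies on chromosome 8 from 100449476 to 100863780, SPRY2 on chromosome 11 from 52153695 to 52158766 and SPRY4 on chromosome 2 from 143877334 to 143891280, all on the minus strand. The stretch around the tyrosine codon is shown because it is the part of the coding sequence by which SPRY1 and SPRY2 are switched on. Each stretch has 30 bases, reads 5′ to 3′ on the gene's minus strand and has the tyrosine codon in capitals. It falls at codon 53 of SPRY1 (chr8:100858703-100858732), codon 55 of SPRY2 (chr11:52155261-52155290) and codon 52 of SPRY4 (chr2:143881711-143881740).
SPRY1: ggcagcaatgaaTACacagaagggccgtca
SPRY2: aacaccaatgagTACacagagggacccact
SPRY4: gtggagaacgacTACatagacagccctggc
SPRY1 and SPRY2 matched at 21 of the 30 bases, SPRY1 and SPRY4 at 15, and SPRY2 and SPRY4 at 14. The SPRY4 stretch was placed by its best match to that of SPRY2, after the motif that located the other pair was not found in it. Whether its tyrosine docks CBL was not examined.

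The Spred genes and IL17RD are split over more coding exons. SPRED1 occupies chromosome 1 from 132903103 to 133016725 on the minus strand with 7 coding exons. SPRED2 lies on chromosome 3 from 76527646 to 76649652 and SPRED3 on chromosome 6 from 47302211 to 47312034, both on the plus strand with 6 coding exons. IL17RD lies on chromosome 13 from 38935631 to 39006721 on the minus strand with 13. An uncharacterised gene, LOC106506784, overlaps the span of SPRED1. Its own row held 35 to 96 counts per library, between 0.622% and 1.18% of the SPRED1 count, and whether the counting used strand is not given in the sources used here. Another annotated gene, LOC106504731, overlaps the span of SPRY1 and was not analysed here. No circRNA, and none of the 9014 non-coding transcripts that could be placed on the genome, lay within 5 kb of a member.

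Libraries held between 46773376 and 67371523 gene counts, with the 3 bFGF libraries the smallest. Levels below are CPM, the gene counts scaled to a common library total and adjusted by TMM, and the smallest count of any member in any library was 773. A library of the OIM group, replicate 2, stood apart from its group. The mean chi-square per gene was 19.05 and 19.07 between it and the other OIM libraries, against 5.874 between those. It was the highest OIM library for 5 of the 7 members, compared with 36.1% of all genes tested. In the pathway lists read below it was highest for 7 of 8 ERK output genes and 6 of 15 partner genes. It was highest for 2 of 21 relay genes and 1 of 5 FGF receptor genes. For this reason the comparisons of the members that involve OIM are also given without OIM replicate 2. The shares, the ratios and most genes of the pathway lists are given only with it.

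In control PVICs the members were all expressed, and the levels within the group were close. SPRY1 stood at 17.6, 17.1 and 15.3 CPM in control replicates 1 to 3. SPRY2 stood at 27.7, 30.6 and 28.2 CPM, and SPRY4 at 19.3, 24.0 and 17.9 CPM. The coefficient of variation among control libraries was 7.28% for SPRY1, 5.45% for SPRY2 and 15.6% for SPRY4, so the last varied most. SPRED1 was found at 87.5, 88.9 and 96.4 CPM. SPRED2 was found at 32.6, 33.4 and 31.7 CPM, SPRED3 at 35.4, 36.2 and 34.7 CPM, and IL17RD at 15.1, 16.9 and 18.2 CPM.

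A count depends on the length of the mRNA, so members were ranked per kilobase of their longest annotated mRNA. In control cells SPRED1 (13.2 ± 0.688 CPM per kb, SD, n = 3) and SPRY2 (12.5 ± 0.682) came first with overlapping ranges. SPRED3 (6.54 ± 0.138) and SPRED2 (6.24 ± 0.168) followed, again overlapping. SPRY4 (3.81 ± 0.593), SPRY1 (3.13 ± 0.227) and IL17RD (1.85 ± 0.172) were lower, and none of these ranges touched its neighbour. SPRY3, which belongs to the family but not to the set examined, had only 5 to 17 counts in any library and was left out of the ranking.

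The comparison of OIM with control asks how the calcifying medium alone affected the inhibitors. No member was called, where a call needed a log2 fold change of 0.5 or more in either direction and, in edgeR's quasi-likelihood test, an adjusted p not above 0.05. DESeq2 also called 0 of 7. At an unadjusted p under 0.05 edgeR counted 4 members, and 3 had an adjusted p of at most 0.05 with a change under the fold limit. All of these differences were upward, as were those of 14.2% of all genes at that unadjusted p and of 7.69% at that adjusted p. With the fold limit, among all genes tested, 1.49% were called higher and 0.864% lower. The median log2 fold change was 0.16 over the 7 members and -0.0019 over all genes.

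SPRY1 read 17.6, 23.7 and 14.5 CPM in OIM replicates 1 to 3, a range that enclosed all 3 control libraries. Its log2 fold change of 0.16 (SE 0.115, adjusted p = 0.4) became -0.054 without OIM replicate 2, which was 1.48-fold above the mean of the other OIM libraries. SPRY2 read 31.2, 36.6 and 29.02 CPM, with a log2 fold change of 0.16 (SE 0.0677, adjusted p = 0.121) that was 0.0645 without that library. SPRY4 read 25.4, 30.1 and 22.8 CPM and overlapped the control. Of the 7 it had the largest difference from control, a log2 fold change of 0.36 (SE 0.0961, adjusted p = 0.016), which was 0.24 (adjusted p = 0.0474) without OIM replicate 2. Over all alternatives its adjusted p ran from 0.00183 to 0.107, with 0.0715 from DESeq2, 0.0853 without control replicate 1 and 0.107 without control replicate 3.

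The 3 Spred genes were in every OIM library above every control library, as were 14.5% of all genes tested, and the differences were small. SPRED1 read 96.7, 106 and 98.6 CPM under OIM, a log2 fold change of 0.14 with an adjusted p of 0.0382. SPRED2 read 37.7, 36.9 and 35.3 CPM, a log2 fold change of 0.17 with an adjusted p of 0.0459. SPRED3 read 37.4, 36.3 and 38.0 CPM, a log2 fold change of 0.071 with an adjusted p of 0.42. Without OIM replicate 2 the adjusted p of SPRED1 was 0.124 (0.017 to 0.163 over all alternatives) and that of SPRED2 was 0.0785 (0.0261 to 0.158), and the log2 fold change of SPRED3 was 0.0915. IL17RD read 17.6, 18.8 and 13.5 CPM and had a log2 fold change of -0.0069 (adjusted p = 0.976), whose sign changed with median-of-ratios size factors and with some libraries left out. Without OIM replicate 2 it was -0.11.

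**Figure D1:**
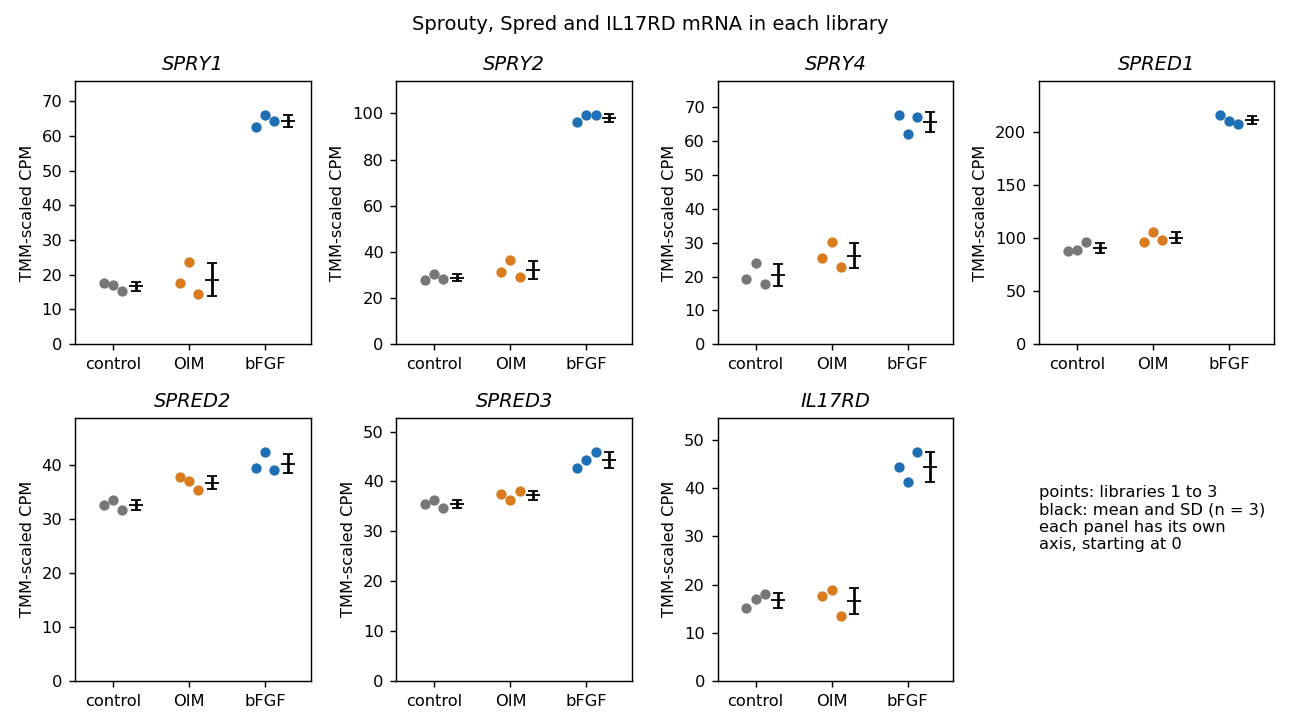
TMM-scaled CPM (vertical axes, each starting at 0) of the 7 genes in the control, OIM and bFGF groups. Coloured points are the 3 libraries of a group and the black bar is their mean with SD. In every panel the 3 bFGF libraries lie above the other 6, by a wide gap for SPRY1, SPRY2, SPRY4, SPRED1 and IL17RD and by a small gap for SPRED2 and SPRED3.

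Adding bFGF to OIM separated the family into 5 genes that rose and 2 that stayed under the fold limit. All 3 Sprouty genes, SPRED1 and IL17RD were called higher, with folds between 2.102 and 3.45, and no member was called lower. Among all genes tested, 17.7% were called higher and 18.4% lower, a split that became 27.3% and 12.4% when libraries were scaled by their totals alone. With no fold limit all 7 members had an adjusted p of at most 0.05 and a higher level, as did 33.8% of all genes, although SPRED2 did not keep that adjusted p under every alternative. The median log2 fold change was 1.33 over the 7 members and -0.0029 over all genes. Every bFGF library lay above every OIM library for all 7 members, a separation seen for 36.3% of all genes tested. Without OIM replicate 2 the log2 fold changes were 2.02 for SPRY1, 1.72 for SPRY2, 1.46 for SPRY4, 1.13 for SPRED1, 0.157 for SPRED2, 0.249 for SPRED3 and 1.53 for IL17RD.

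SPRY1 had the largest log2 fold change of the family. It read 62.6, 65.9 and 64.3 CPM in bFGF replicates 1 to 3, against 14.5 to 23.7 CPM under OIM. The log2 fold change was 1.78 (SE 0.111, 95% confidence interval 1.55 to 2.02, adjusted p = 1.72e-11), a 3.45-fold rise. SPRY1 held place 469 among the 13662 genes ordered by log2 fold change, counted from the highest.

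SPRY2, the best studied member, read 96.1, 99.1 and 99.2 CPM under bFGF, and no OIM library exceeded 36.6 CPM. Its log2 fold change was 1.60 (SE 0.0661, 95% confidence interval 1.46 to 1.74, adjusted p = 2.94e-14), a 3.04-fold rise. The bFGF libraries differed little, with a coefficient of variation of 1.77% against 12.03% under OIM.

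SPRY4, which like its relatives holds back Ras activation, read 67.6, 62.2 and 67.1 CPM under bFGF. Its log2 fold change was 1.33 (SE 0.093, 95% confidence interval 1.13 to 1.52, adjusted p = 1.11e-10), a 2.51-fold rise over OIM levels of 22.8 to 30.1 CPM. SPRY4 was the Sprouty gene with the smallest log2 fold change, and its confidence interval lay below that of SPRY1.

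SPRED1, the gene altered in Legius syndrome, read 216, 211 and 207.5 CPM under bFGF against 96.7 to 106 CPM under OIM. The log2 fold change was 1.07 (SE 0.0448, 95% confidence interval 0.98 to 1.17, adjusted p = 3.58e-14), a 2.102-fold rise. The other Spred genes, which act on Ras in the same manner, stayed under the fold limit. SPRED2 read 39.3, 42.3 and 39.0 CPM, a log2 fold change of 0.13 (95% confidence interval 0.019 to 0.25, adjusted p = 0.0378). Its adjusted p was 0.19 without bFGF replicate 2, 0.143 without OIM replicate 3 and 0.0617 with no filter on low counts. SPRED3 read 42.7, 44.2 and 45.9 CPM, a log2 fold change of 0.25 (95% confidence interval 0.14 to 0.36, adjusted p = 0.000249). For both of these the upper confidence bound lay under the fold limit of 0.5. With library totals alone, which shifted the median of all genes by 0.22, the log2 fold changes were 0.35 for SPRED2 and 0.47 for SPRED3.

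IL17RD, the membrane-bound inhibitor, read 44.5, 41.3 and 47.5 CPM under bFGF, and the highest OIM library had 18.8 CPM. Its log2 fold change was 1.42 (SE 0.0967, 95% confidence interval 1.21 to 1.62, adjusted p = 7.44e-11), a 2.67-fold rise.

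The comparison of bFGF with control uses the same bFGF libraries and is given beside the former, not as separate evidence. The same 5 members were called higher and none lower, where 18.9% of all genes tested were called higher and 20.0% lower (28.8% and 13.5% with library totals alone). With no fold limit it was 7 members and 34.5% of all genes that were higher. The log2 fold changes were 1.95 (SE 0.112) for SPRY1, 1.77 (SE 0.0666) for SPRY2, 1.69 (SE 0.0948) for SPRY4, 1.22 (SE 0.045) for SPRED1 and 1.41 (SE 0.0967) for IL17RD. SPRED2 had 0.30 (adjusted p = 6.13e-05) and SPRED3 0.32 (adjusted p = 1.47e-05), both under the fold limit. All 7 members had every bFGF library above every control library, as did 36.4% of all genes tested.

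**Figure D2:**
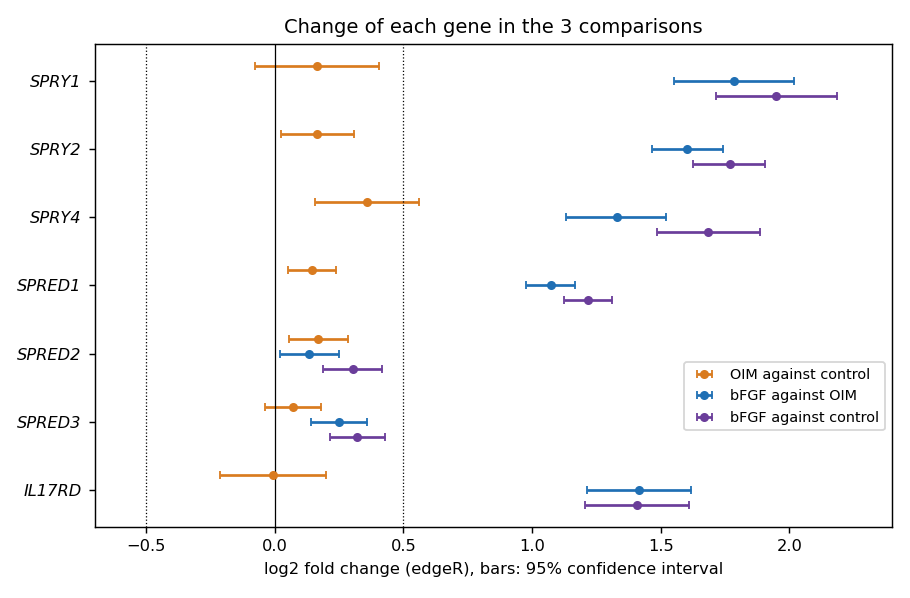
Log2 fold change of each gene (horizontal axis) in the 3 comparisons, with 95% confidence intervals from edgeR. Dotted lines mark the fold limit of 0.5 in either direction. SPRED2 and SPRED3 stay inside it in all 3 comparisons, while the other 5 genes lie beyond it in both comparisons of bFGF.

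**Figure D3:**
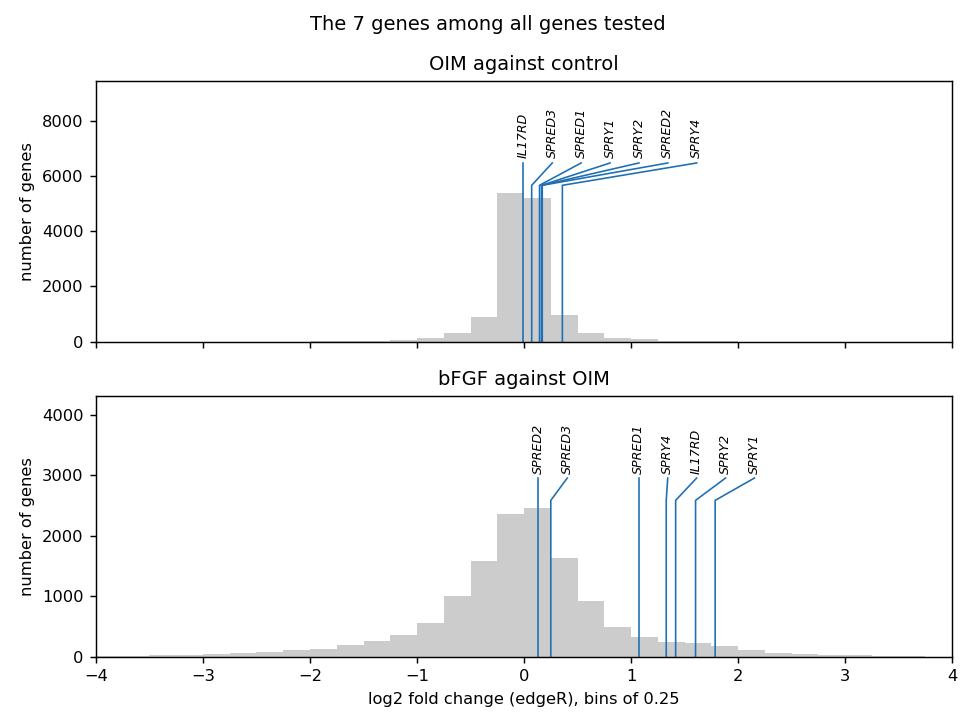
Number of genes (vertical axis) by log2 fold change (horizontal axis, bins of 0.25) for all genes tested, with the 7 genes marked by lines. Against control the OIM values of the 7 lie near 0, and against OIM the bFGF values of 5 of them lie between 1.07 and 1.78. Genes beyond 4 in either direction are outside the plotted range.

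With levels expressed per kilobase, the summed level of the 7 genes was 47.2 ± 1.42 CPM per kb (SD, n = 3) in control, 52.7 ± 4.10 in OIM and 118.3 ± 0.599 in bFGF. The bFGF level was 2.25 times that of OIM, and 2.35 times without OIM replicate 2. Of the added amount, SPRY2 made up 43.6% and SPRED1 24.4%, while SPRY1 contributed 13.1%, SPRY4 11.2% and IL17RD 4.69%. SPRED3 accounted for 1.98% and SPRED2 for 1.04%. These shares depend on the length used, 1 longest mRNA per gene (2303 bases for SPRY2, 6906 for SPRED1), and no other length was tried. In CPM, not divided by length, SPRED1 rose more, from 100.5 in OIM to 211.3 in bFGF. SPRY2 rose from 32.28 to 98.13 CPM.

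The make-up of the summed level per kilobase was described as the share of each gene, on the same lengths. SPRY2 supplied 26.6% of the summed level under OIM and 36.0% under bFGF. The share of SPRY1 was 6.56% and 10.2%, and that of SPRY4 was 9.23% and 10.4%, with overlapping libraries. SPRED1 supplied 27.7% under OIM and 25.9% under bFGF, and each bFGF library (25.3% to 26.5%) lay below the lowest OIM library (26.9%). SPRED2 supplied 13.4% under OIM and 6.51% under bFGF, and SPRED3 supplied 13.1% and 6.90%. IL17RD remained a small component, at 3.49% and 4.16%.

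The order of the levels under OIM was not that under bFGF. Under OIM SPRED1 (14.6 ± 0.726 CPM per kb) and SPRY2 (14.02 ± 1.69) overlapped, as did SPRED2 (7.02 ± 0.236) and SPRED3 (6.87 ± 0.164), and SPRY4 (4.88 ± 0.682) and SPRY1 (3.49 ± 0.882), with IL17RD (1.84 ± 0.305) lowest. Under bFGF SPRY2 (42.6 ± 0.756 CPM per kb) stood alone at the top, above SPRED1 (30.6 ± 0.599) with no overlap. SPRY4 (12.3 ± 0.562) and SPRY1 (12.1 ± 0.306) overlapped each other and both exceeded SPRED3 (8.16 ± 0.292) and SPRED2 (7.70 ± 0.353), whose ranges overlapped. IL17RD (4.92 ± 0.346) was again lowest. In CPM, not divided by length, SPRED1 (211.3) stood above SPRY2 (98.13) under bFGF.

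**Figure D4:**
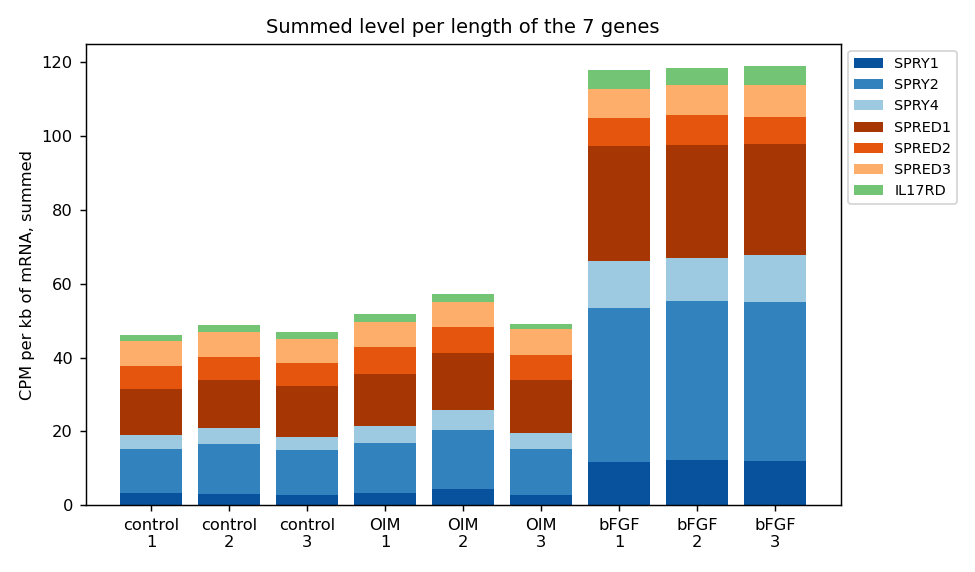
Level of the 7 genes in CPM per kb of mRNA, stacked for each of the 9 libraries. The bFGF bars reach about 118.3, compared with means of 52.7 for OIM and 47.2 for control, and the segments of SPRED2 and SPRED3 change little in height.

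Ratios between members within a library do not depend on library size or scaling, and 4 were examined. The log2 ratio of SPRED2 to SPRED1 was -1.36, -1.52 and -1.48 in the OIM libraries and -2.46, -2.31 and -2.41 in the bFGF libraries, a difference of -0.94. In control it was -1.42, -1.41 and -1.60, within reach of the OIM values. The log2 ratio of SPRY4 to SPRY1 was 0.51 ± 0.159 (SD, n = 3) under OIM and 0.0295 ± 0.101 under bFGF, a difference of -0.48. In control it was 0.28 ± 0.185. SPRY4 to SPRY2 was -0.31 ± 0.0326 under OIM and -0.58 ± 0.0844 under bFGF, with the control libraries from -0.655 to -0.352 overlapping the bFGF values. SPRY2 to SPRY1 was 0.82 ± 0.19 under OIM, 0.61 ± 0.0191 under bFGF and 0.79 ± 0.124 in control, where the OIM and control libraries overlapped. Each of the 4 ratios separated the OIM from the bFGF libraries without overlap. Each gave an exact two-sided permutation p = 0.1, the smallest that 3 against 3 libraries allow (adjusted over the 4 ratios, 0.1). No share over other gene pairs was computed, and the paired members differed in their log2 fold changes, so this separation is a description only. For SPRY2 to SPRY1 the gap between the groups was narrow, 0.626 for the lowest OIM library and 0.625 for the highest bFGF library.

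Over all 9 libraries, the genes with the most similar pattern to each member were sought among 11249 genes, by the root mean square difference of log2 CPM after centring each gene on its mean. For SPRY2 these were EPHA2 (0.0363), a receptor tyrosine kinase gene that also stands in the ERK output list below, and P2RY2 (0.0435), a nucleotide receptor. For SPRY1 they were ATAD5 (0.06) and MIS18A (0.0713), and for SPRY4 CTC1 (0.088) and HECW2 (0.0898). SPRED1 was nearest to MYEF2 (0.0356) and SOAT1 (0.0419), and IL17RD to NEMP1 (0.092) and TTF2 (0.0956). SPRED2 was nearest to RPL18 (0.0262), a ribosomal protein gene, and DCAF7 (0.0319), and SPRED3 to ITPR1 (0.0296) and MARS (0.0316). Among the members themselves SPRED2 and SPRED3 were closest at 0.0741, followed by SPRY1 with SPRY2 at 0.141 and SPRY2 with SPRY4 at 0.142. Many genes outside the family were closer, with SPRED3 at place 251 from SPRED2, SPRED2 at place 510 from SPRED3 and SPRY1 at place 163 from SPRY2. SPRY2 was at place 65 from SPRY1 and at place 42 from SPRY4, and SPRY4 at place 167 from SPRY2. These distances are descriptions over 9 libraries that share 3 treatments.

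Other genes of the pathway were read from lists by role. The ERK output list holds 8 genes taken as readouts of ERK activity, and against OIM bFGF raised 6 and lowered 2, where 17.7% of all genes tested were called higher and 18.4% lower. OIM replicate 2 was the highest OIM library for 7 of the 8, against 36.1% of all genes tested. The phosphatase genes DUSP4 and DUSP6, whose products dephosphorylate ERK-family kinases, had log2 fold changes of 1.95 each (adjusted p = 6.62e-12 and 5.48e-13). The ETS transcription factor genes ETV4 and ETV5 had 2.02 and 2.72 (adjusted p = 3.32e-12 and 7.28e-11). The cell cycle gene CCND1 had 1.51 and EPHA2 had 1.55. The other two moved the opposite way, EPHA4, a receptor tyrosine kinase gene, with -1.63 (adjusted p = 3.38e-14) and PHLDA1 with -0.53 (adjusted p = 3.07e-09). PHLDA1 lay close to the fold limit and was not called without OIM replicate 2 (-0.47) or without bFGF replicate 3 (-0.48). Under OIM alone CCND1 was the only gene of this list to be called, at 0.57 (adjusted p = 2.17e-05). In that comparison with control 1.49% of all genes were called higher and 0.864% lower. At 0.43 without OIM replicate 2, CCND1 was not called.

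The receptors whose signal Sprouty and Spred proteins restrain were read next. Of 5 FGF receptor genes, 0 were called higher against OIM and 2 lower by edgeR, and DESeq2 gave the same counts. Of all genes tested, 17.7% were called higher and 18.4% lower by edgeR. FGFR2 fell from 129 ± 9.72 CPM (SD, n = 3) under OIM to 16.2 ± 0.339 CPM under bFGF, a log2 fold change of -2.997 (SE 0.0605, adjusted p = 8.22e-19). FGFRL1, a receptor-like gene without a kinase domain, fell from 33.6 ± 1.83 to 9.43 ± 0.509 CPM, a log2 fold change of -1.83 (adjusted p = 1.12e-14). FGFR1 stood at 192 ± 5.52 CPM under OIM and 226 ± 2.41 CPM under bFGF, a log2 fold change of 0.23 (adjusted p = 1.72e-05) under the fold limit. FGFR3 and FGFR4 stood at 2.61 and 3.22 CPM under bFGF, with log2 fold changes of 0.22 (adjusted p = 0.337) and 0.28 (adjusted p = 0.173).

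Of the 21 genes of the relay between receptor and ERK, 0 were called higher and 4 lower by edgeR and likewise by DESeq2, where 17.7% of all genes were called higher and 18.4% lower, so that the share of lower calls was near that of all genes. Every bFGF library lay below every OIM library for 14 of the 21 and above for 2. Over the 13662 genes tested these counts were 4895 and 4961. The median log2 fold change of the list was -0.19. GAB1, a docking adaptor, had a log2 fold change of -1.07 (adjusted p = 6.16e-13) and MAP2K1, which encodes MEK1, had -0.90 (adjusted p = 5.65e-12). The remaining calls, named after their values were seen, were the scaffold gene KSR1 at -0.80 and the receptor adaptor gene FRS2 at -0.51, which lay at the fold limit and was not called without OIM replicate 2 (-0.48), OIM replicate 3 (-0.497), bFGF replicate 2 (-0.494) or bFGF replicate 3 (-0.496).

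The 15 genes for proteins known to bind or modify Sprouty and Spred gave 1 call higher and 4 lower, against 17.7% and 18.4% of all genes. SH3KBP1, a CBL-binding adaptor gene, rose by 1.27 on the log2 scale (adjusted p = 1.1e-11). EGLN1, an oxygen-sensing prolyl hydroxylase gene, had -1.38 (adjusted p = 1.2e-15) and the ubiquitin ligase gene CBLB had -1.21 (adjusted p = 3.06e-16). SIAH1 at -0.63 and SIAH2 at -0.53, also ubiquitin ligase genes, were named after their values were seen, and SIAH2 was not called without OIM replicate 1 (-0.47) or bFGF replicate 1 (-0.49). Under OIM alone the only call in this list was CAV1, encoding caveolin, at -0.59 (adjusted p = 3.69e-09). In that comparison with control 1.49% of all genes were called higher and 0.864% lower.

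**Figure D5:**
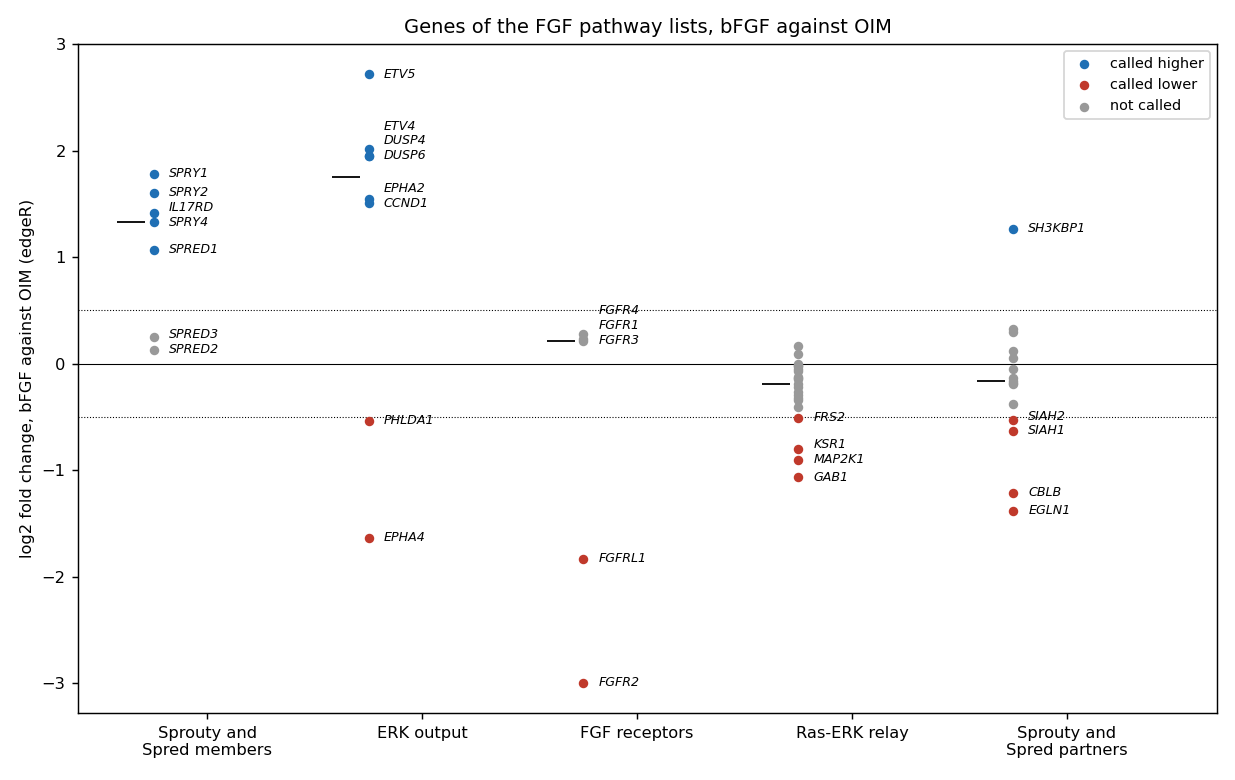
Log2 fold change of bFGF against OIM (vertical axis) for each tested gene in the 5 lists. Points are coloured by call, short bars are list medians and dotted lines mark the fold limit of 0.5. Of the members 5 lie above the limit, as do 6 of the 8 ERK output genes, and of the 21 relay genes 4 are called lower.

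In promoter windows from 250 bases before to 50 after the annotated gene start, 3 sequence motifs were searched on both strands. The ETS motif CCGGAAG was present in 11% of 19556 promoters, the AP-1 motif TGANTCA in 6.07% and the CRE motif TGACGTCA in 2.26%. None of the 7 members held any of the 3 in this window. With motifs this rare, no hit in 7 genes says little about the members. The window was set only at the annotated gene start, while a member has up to 5 mRNA models. The SPRY1 window had 28.0% GC, against 53.7% to 70.0% for the other members, and which start is used was not tested.

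Cell-type markers were read beside these results. In bulk RNA, fewer cells of a type and less RNA per cell cannot be told apart. The summed level of 10 valve interstitial markers, all 10 of them tested and none at 3 counts or fewer in a whole group, was 73900 to 78800 CPM in control, 70400 to 76100 CPM in OIM and 39800 to 40300 CPM in bFGF libraries. Against OIM 5 of these markers were called lower, among them COL1A1 (-1.34) and ACTA2 (-3.52), beside 18.4% of all genes tested. Called higher were 2, VIM (0.66) and POSTN (1.46), beside 17.7% of all genes tested. PDGFRA (-0.059), PDGFRB (0.13) and THY1 (-0.40) were not called. The sum of 8 endothelial markers was 72.6 to 74.4, 86.8 to 87.9 and 167 to 177 CPM in the same order, most of it from ERG, at 66.8 ± 0.873 CPM (SD, n = 3) in OIM and 137 ± 5.05 CPM in bFGF. Of these 8, 6 were called higher against OIM, beside 17.7% of all genes tested, and TIE1 and VWF were not called. Some of the 6 had low levels. KDR stood at 0.1695 CPM in OIM and 1.175 CPM in bFGF, CLDN5 at 0.06015 and 0.3358 CPM and TEK at 0.7399 and 1.524 CPM. None of the 8 was at 3 counts or fewer throughout a group, and of the defining genes PECAM1 stood at 11.8 CPM in OIM and 20.7 CPM in bFGF, CDH5 at 5.80 and 8.24 CPM and VWF at 0.303 and 0.228 CPM. The sum of 6 leukocyte markers was 12.9 to 16.2, 13.9 to 15.6 and 8.40 to 9.19 CPM, with CD3E at 3 counts or fewer. Nearly all of it was CD14, at 13.5 CPM in OIM and 7.68 CPM in bFGF, and this was the only leukocyte marker called. The markers called here changed in the same contrast as the 5 called members, and their part in the result was not tested.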

How the data were processed

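RNA from PVICs was sequenced in 3 libraries for each of 3 groups, assigned from the sample titles. The authors deposited 1 unnormalized table of estimated counts, whole numbers for genes and circRNAs and fractional for many non-coding transcripts. The study's methods name Cutadapt, STAR and susScr11 on poly-A RNA, whereas the labels name a ribosomal-depletion kit and, in the submitters' processing notes, Trimmomatic, HISAT2, StringTie and Sscrofa11.1; the counting program is not given in the sources used here.

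Gene counts were filtered with filterByExpr, scaled by TMM and tested with edgeR 4.0.16 (R 4.3.3) by the quasi-likelihood test in a model of 3 groups with 6 residual degrees of freedom. P-values were adjusted by Benjamini-Hochberg over 13662 genes. The standard error is the log2 fold change divided by the square root of F. The procedure was tested on simulated data. The common biological coefficient of variation was 0.0602, above the counting error of any member at these depths. Loci, lengths, promoters and coding stretches came from RefSeq Sscrofa11.1. No protein sequences were used.

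The members and lists were chosen with earlier results of these data known. Named genes were all members, all ERK output and FGF receptor genes, the 2 largest calls per direction in the relay and partner lists, and the 2 genes most similar to each member (prior count 2, mean of at least 1 CPM). Alternatives were DESeq2 1.42.0, other scalings, filters, fold limits and sample sets, a replicate block and each library left out.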

Additional observations from a re-analysis of the deposited data

How the results depend on the processing

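The count of members called was 5 for bFGF against OIM and 5 for bFGF against control with DESeq2, with median-of-ratios size factors, with other filters, with only the 2 groups compared, and without each library in turn. With a replicate block, the counts were 0 for OIM against control, 5 for bFGF against OIM and 5 for bFGF against control. Libraries with the same replicate number did not deviate together, with every correlation under 0.1, so the numbers were not taken as pairs. With no limit on the fold change, OIM against control gave 3 members and each bFGF comparison 7 (against OIM, SPRED2 had an adjusted p of 0.19 without bFGF replicate 2, 0.143 without OIM replicate 3 and 0.0617 with no filter on low counts), where 7.69%, 33.8% and 34.5% of all genes were higher at the same adjusted p (OIM against control, bFGF against OIM, bFGF against control). Scaling by library totals alone moved the median of all genes by 0.22 in both bFGF comparisons, and SPRED2 (0.53) and SPRED3 (0.55) then passed the fold limit against control; relative to that shift they remained under it. On the same scaling the summed level per length, an alternative chosen after seeing the data, was 2.62 times that of OIM, PHLDA1 (-0.31), FRS2 (-0.28), SIAH1 (-0.41) and SIAH2 (-0.30) were no longer called and FGFR4 (0.51) was, and the partner list gave 3 calls higher and 2 lower, beside 27.3% and 12.4% of all genes. For OIM against control, leaving out 1 library gave log2 fold changes from -0.054 to 0.32 for SPRY1 and from -0.11 to 0.12 for IL17RD, and median-of-ratios size factors gave 2.85e-05 for IL17RD. The causes were not tested. With 3 libraries per group, a permutation test of a single value cannot go below p = 0.1.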
